A study of Mus musculus with 2 samples.

Results

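Retinoic acid is made, carried and destroyed by a small set of enzymes and binding proteins. The 9 genes described here encode those of its final steps: the retinaldehyde dehydrogenases Aldh1a1, Aldh1a2 and Aldh1a3, the enzymes Rdh10 and Dhrs3, which interconvert retinol and retinal, the binding proteins Crabp1 and Crabp2, and the hydroxylases Cyp26a1 and Cyp26b1. They were taken by symbol, and all 9 were found among the 43346 listed genes. RNA came from whole forebrain of healthy B6NCrl mouse embryos at 16.5 days of gestation, with male and female embryos pooled and no treatment or altered allele named in the labels. The only group has 2 biological replicates, each a separate pool, and pool 2 held tissue of 41 embryos. Libraries were made from 10 ng of total RNA, restricted to molecules longer than 200 nt, with ERCC spike-in RNAs added. No other tissue, age or genotype was measured, so levels are described within the forebrain and compared between the pools, without a test between conditions.

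Retinoic acid forms from vitamin A by successive oxidations, the first reversible, to retinal, and the second irreversible, to the acid. It binds nuclear receptors that sit as heterodimers on DNA, and its local concentration is set by where cells synthesise it and where neighbouring cells degrade it. In the embryonic forebrain the known sources differ by gene. Aldh1a2 is known from the meninges that cover the cortex and Aldh1a3 from the lateral ganglionic eminence, which gives rise to the striatum. Aldh1a1 is known from dopaminergic neurons of the midbrain and from the eye. Because these libraries hold whole tissue, a larger share of cells of a type and more RNA per cell cannot be told apart.

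Reads assigned to genes came to 31211128 expected counts for replicate 1 and 26957198 for replicate 2. All 7 forebrain markers, all 6 neuronal markers and all 8 radial glia markers reached 1 TPM (a level corrected for transcript length and library size) in both libraries. Over 18712 genes the counts of the libraries differed by more than sampling noise (chi-square divided by its degrees of freedom, 14.6), so they are not 1 library deposited again. Of 21474 protein-coding genes, 13038 (60.7%) reached 1 TPM in both.

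Of the 9 genes, 7 reached 1 TPM in both libraries, and the same number did so at minimums of 0.5 and 2 TPM. The exceptions were Aldh1a1 and Cyp26a1. Crabp1, Dhrs3, Crabp2 and Aldh1a2 reached 10 TPM in both. By mean TPM the order was Crabp1, Dhrs3, Crabp2, Aldh1a2, Aldh1a3, Rdh10, Cyp26b1, Aldh1a1 and Cyp26a1, and FPKM gave the same order. The 2 libraries' ranges did not overlap between Crabp1 and Dhrs3, between Aldh1a2 and Aldh1a3, or between Aldh1a1 and Cyp26a1. All other neighbours overlapped in their ranges over the libraries. Within a library, Cyp26b1 lay above Aldh1a1 with separate 95% Poisson intervals in both, and Rdh10 lay above Cyp26b1 in both, at 4.20 against 2.70 TPM and 5.37 against 4.69 TPM.

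**Figure D1:**
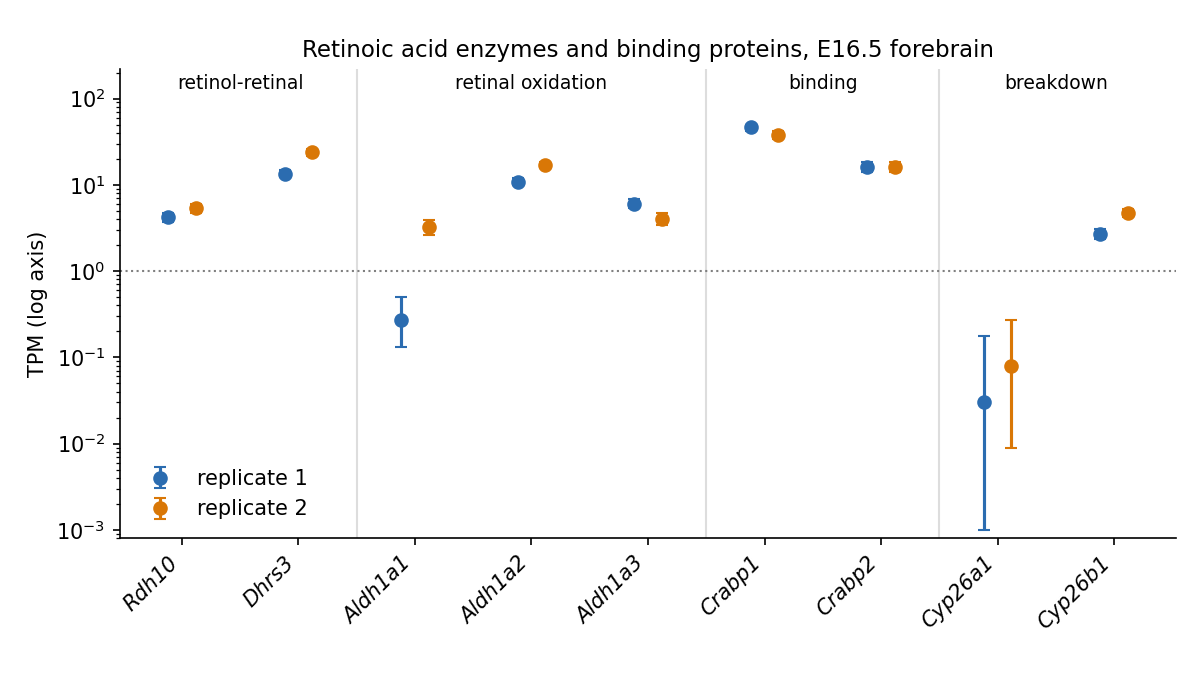
Level of each of the 9 genes in TPM (log axis), by role, with 1 point for each forebrain pool, bars for its 95% Poisson counting interval and a dotted line at 1 TPM. Crabp1 lies highest at 46.16 and 37.91 TPM, Cyp26a1 lies lowest at 0.03 and 0.08 TPM, and Aldh1a1 shows the widest gap between its points.

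Dhrs3 was the more abundant of the enzymes that act between retinol and retinal. Rdh10 oxidises retinol to retinal and is the main embryonic enzyme of that step, whereas Dhrs3 reduces retinal back to retinol and needs Rdh10 for full activity. Dhrs3 (chromosome 4, 144892827 to 144928209) was at 13.46 and 23.71 TPM in replicates 1 and 2, from 403 and 534 counts, a mean of 18.6 ± 7.25 TPM (SD, n = 2). Rdh10 (chromosome 1, 16105774 to 16133734) was at 4.20 and 5.37 TPM, from 258 and 279 counts, a mean of 4.79 ± 0.827 TPM (SD, n = 2). Every Dhrs3 value lay above every Rdh10 value. The level of Dhrs3 over Rdh10 was 3.20-fold by TPM in replicate 1 (95% exact counting interval 2.73 to 3.76) and 4.41-fold in replicate 2 (3.81 to 5.12). These and later intervals take account of counting error alone and leave out the spread between pools. PCR copies of a molecule were not separated, so the counting error itself may be larger than the intervals show.

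Dhrs3 differed between the pools by more in TPM than in counts. The log2 ratio of replicate 2 to replicate 1 was 0.64 in scaled counts and 0.81 in TPM. Its listed transcripts differ in length, and their shares differed between the libraries. Dhrs3-207 held 38.3% of the gene's TPM in replicate 1 and 32.3% in replicate 2, and Dhrs3-206 held 33.9% and 23.1%. The short Dhrs3-205 held 7.68% and 17.9%. Transcripts annotated as something other than protein-coding, led by Dhrs3-201, a nonsense-mediated decay form, held 20.1% and 26.8%. For Rdh10, the protein-coding Rdh10-201 held 86.6% and 88.1%, and a retained-intron transcript held the remaining 13.4% and 11.9%.

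Aldh1a2 supplied most of the retinaldehyde dehydrogenase message in both pools. These enzymes carry out the irreversible oxidation of retinal to retinoic acid. Aldh1a2 (chromosome 9, 71215789 to 71296243) was at 10.9 and 16.97 TPM in replicates 1 and 2, from 443 and 579 counts, a mean of 13.9 ± 4.29 TPM (SD, n = 2). Its mean level lay above that of 62.6% of protein-coding genes.

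Aldh1a3 stood lower and was further from Aldh1a2 in the second pool. Aldh1a3 (chromosome 7, 66390890 to 66427517) was at 6.03 and 4.06 TPM, from 291 and 152 counts, a mean of 5.05 ± 1.39 TPM (SD, n = 2). Aldh1a2 exceeded Aldh1a3 by TPM 1.81-fold in replicate 1 and 4.18-fold in replicate 2. The log2 ratio of their TPM levels, with 0.1 TPM added to each, was -0.84 (95% exact counting interval -1.07 to -0.64) in replicate 1 and -2.04 (-2.33 to -1.81) in replicate 2. These intervals are of counts per length, without the added 0.1 TPM. The sign was the same in both libraries, and the intervals did not overlap.

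Aldh1a1 was near the floor of detection in one pool and clearly present in the other. Aldh1a1 (chromosome 19, 20492715 to 20643465) had 10 counts in replicate 1 and 99 in replicate 2. Its level was 0.27 TPM (95% Poisson interval 0.131 to 0.501) and 3.21 TPM (2.61 to 3.91), a mean of 1.74 ± 2.08 TPM (SD, n = 2). The SD exceeded the mean, so no single level describes both pools. Beside a floor of 3 counts, equal to 0.0818 and 0.0974 TPM in replicates 1 and 2, the gene was above it in each.

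The division among the 3 dehydrogenases therefore differed between the pools. Their summed level was 17.2 and 24.2 TPM in replicates 1 and 2. Aldh1a2 held 63.4% of that sum in replicate 1 and 70.0% in replicate 2. Aldh1a3 held 35.1% and 16.8%, and Aldh1a1 held 1.57% and 13.2%. With 0.1 TPM added to each, Aldh1a3 lay above Aldh1a1 by a log2 ratio of 4.05 in replicate 1 and 0.33 in replicate 2. By counts per length, without that addition, it was 22.1-fold higher in replicate 1. The log2 counting interval by counts per length in replicate 2, -0.04 to 0.72, includes equality. The leading place of Aldh1a2 was common to both libraries, and the order of the other two was resolved in replicate 1 alone.

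Reads of these dehydrogenases can be told apart on sequence. Over aligned coding bases, Aldh1a1 and Aldh1a2 were 69.0% identical, Aldh1a1 and Aldh1a3 68.2%, and Aldh1a2 and Aldh1a3 69.6%. The closest relative of Aldh1a1 is Aldh1a7, a rodent copy of the gene, at 91.6% identity. Of 1954 stretches of 100 bases in the Aldh1a1 transcript, 1 also occurred in Aldh1a7 and in no other gene. Aldh1a7 itself had 21 and 19 counts, 0.57 and 0.61 TPM, so it did not show the gap of Aldh1a1. None of the leading transcripts of the other 8 genes shared a stretch of 100 bases with another gene. No exon of the 9 genes overlapped an exon of another annotated gene on either strand.

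The Aldh1a3 message was divided among transcripts. The full-length Aldh1a3-201, with 13 exons, held 62.2% of the gene's TPM in replicate 1 and 50.5% in replicate 2, and the 7-exon Aldh1a3-203 held 32.3% and 49.6%. Aldh1a3-205 held 5.48% in replicate 1 and was listed at 0 in replicate 2. In the authors' posterior mean values Aldh1a3-201 held 55.1% and 41.8%. Such shares come from a model that divides reads among overlapping transcripts, here of a gene with 291 and 152 counts. Aldh1a1, Aldh1a2, Crabp1 and Cyp26a1 had 1 listed transcript each.

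**Figure D2:**
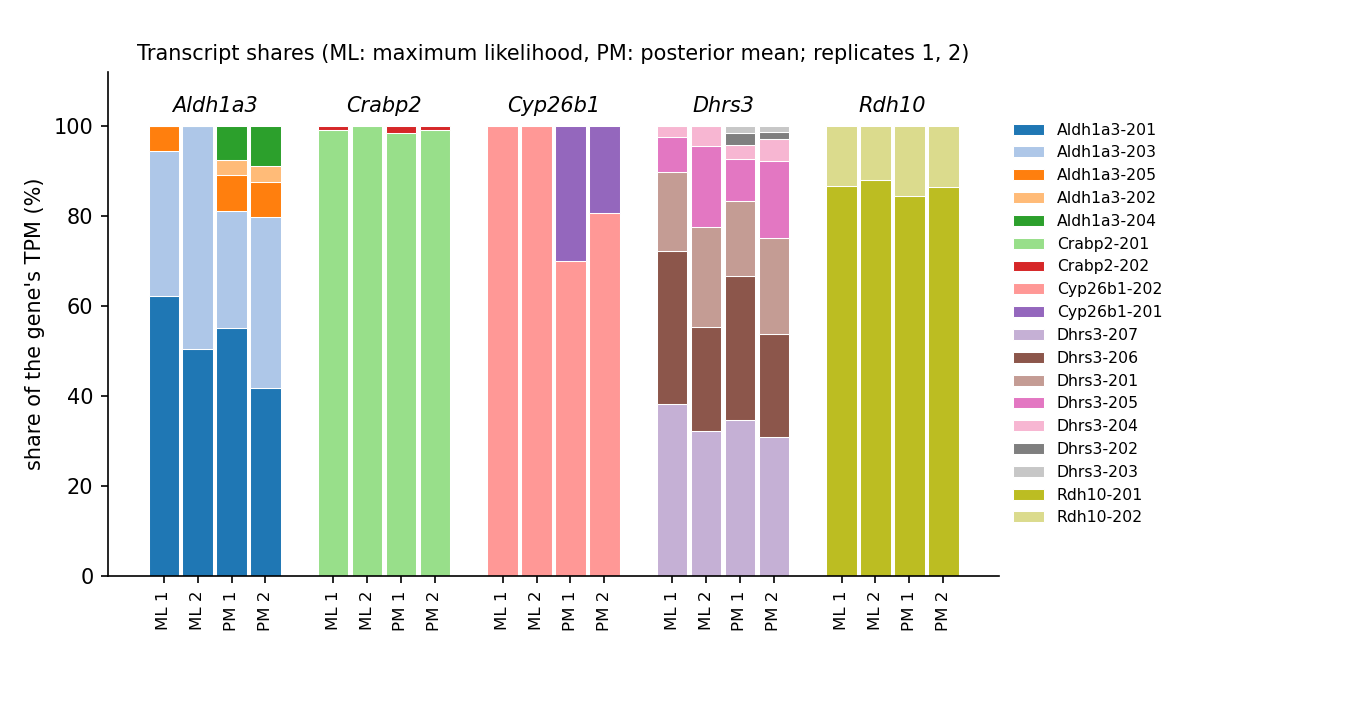
Share of each gene's TPM (percent) held by each of its listed transcripts in the 2 libraries, by the authors' maximum likelihood (ML) and posterior mean (PM) values, for the 5 genes with at least 2 listed transcripts. Crabp2, Rdh10 and Cyp26b1 are held almost wholly or mostly by 1 transcript, whereas Aldh1a3 and Dhrs3 are divided.

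The binding proteins were the most abundant pair. Crabp1 and Crabp2 are small cytoplasmic proteins that hold retinoic acid, and Crabp2 is known for passing it to nuclear receptors whereas Crabp1 is associated with its sequestration and metabolism. Crabp1 (chromosome 9, 54764748 to 54773110) was at 46.16 and 37.91 TPM in replicates 1 and 2, from 609 and 420 counts, a mean of 42.0 ± 5.83 TPM (SD, n = 2). Crabp2 (chromosome 3, 87948666 to 87953376) was at 16.18 and 16.02 TPM, from 252 and 210 counts, a mean of 16.1 ± 0.113 TPM (SD, n = 2). Of the 8 genes with enough counts to be compared, Crabp2 had the ratio nearest 0 by trimmed mean scaling, whereas with spike-in scaling Aldh1a3 did, at -0.15.

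Crabp1 exceeded Crabp2 in both pools. By TPM it was 2.85-fold higher in replicate 1 and 2.37-fold higher in replicate 2, with counting intervals that excluded equality in each. On the log2 scale of TPM + 0.1, Crabp2 minus Crabp1 was -1.51 and -1.24. The mean level of Crabp1 lay above that of 80.4% of protein-coding genes, and that of Crabp2 above 64.8%. Their coding sequences were 70.8% identical over aligned bases.

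Cyp26b1 supplied nearly all of the hydroxylase message. The CYP26 enzymes are cytochromes that oxidise retinoic acid to inactive products and so mark regions shielded from it. Cyp26b1 (chromosome 6, 84571414 to 84593908) was at 2.70 and 4.69 TPM in replicates 1 and 2, from 233 and 340 counts, a mean of 3.70 ± 1.41 TPM (SD, n = 2). Cyp26a1 (chromosome 19, 37697798 to 37701536) had 1 count in replicate 1 and 2 in replicate 2. Its level was 0.03 TPM (95% Poisson interval 0.001 to 0.177) and 0.08 TPM (0.009 to 0.274), under the floor of 3 counts in both libraries. The third gene of the family, Cyp26c1, was listed at 0 in both.

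Cyp26b1 exceeded Cyp26a1 by counts per length 84.8-fold in replicate 1, with a counting interval of 15.1 to 3363, and 61.9-fold in replicate 2, with an interval of 17.0 to 513. The intervals are wide because the smaller gene had so few counts. For Cyp26b1 the maximum likelihood values gave Cyp26b1-202 100% in both libraries. The posterior means gave it 70.0% and 80.7%, with Cyp26b1-201 at 30.0% and 19.3%, so the division between these forms of nearly equal length is not settled.

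Cyp26a1 is a classical target of the pathway, and its proximal promoter is shown because it was the only promoter among these genes to hold the receptor motif searched. RefSeq windows (GRCm38.p6, from 250 bases before to 50 after a start) matched 6 of the 9 genes, with 9 windows: Dhrs3, Cyp26b1, Crabp1, Aldh1a2, Aldh1a1 and Cyp26a1. Aldh1a3, Crabp2 and Rdh10 had no entry. The stretch printed here runs along the plus strand at chr19:37697716-37697797 and ends just before the start of Cyp26a1 annotated in GENCODE. Capitals mark the 2 repeats of a DR5 element, a direct repeat of the site that 1 receptor of the pair binds, with a spacer of 5 bases.
Cyp26a1 promoter: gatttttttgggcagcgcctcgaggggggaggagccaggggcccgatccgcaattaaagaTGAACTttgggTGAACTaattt
Read on the opposite strand, the element is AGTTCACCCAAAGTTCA (chromosome 19, 37697776 to 37697792). Its last base on the plus strand lies 6 bases before the GENCODE start. Counted from the RefSeq start, which lies further downstream, the element is at -32 to -16. A DR5 element occurred on either strand in 32 of 32851 RefSeq windows, or 0.0974%. The shorter-spaced DR2 and DR1 elements, found in 0.268% and 0.222% of windows, occurred in none of the 9. A match describes these letters alone. In the libraries the gene behind this promoter had 1 and 2 counts.

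The other promoter windows differed widely in base composition. The Aldh1a2 window held 78.0% G and C and 50 CpG pairs, against medians of 52.7% and 7 over all windows. The Aldh1a1 windows, at 2 alternative starts, held 43.3% and 47.0% G and C and 3 and 1 CpG pairs. The Crabp1 window held 65.0% and 17 pairs, and those of Cyp26a1 and Cyp26b1 each held 62.3%, with 26 and 9 pairs. The motif TATAAA was found on either strand in 13.6% of all windows and in those of Cyp26a1 and Cyp26b1. Counted from the RefSeq start, with negative values before it, the match lay at 29 to 34 in Cyp26a1. In Cyp26b1 it lay at -139 to -134.

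Summed by role, the binding proteins came to 62.3 and 53.9 TPM in replicates 1 and 2. Dhrs3 and Rdh10 together came to 17.7 and 29.1 TPM, the dehydrogenases to 17.2 and 24.2 TPM, and the hydroxylases to 2.73 and 4.77 TPM. Message for the dehydrogenases, without Rdh10, exceeded that for the hydroxylases 6.30-fold in replicate 1 and 5.08-fold in replicate 2. Both roles were higher in replicate 2, and their ratio moved less than either sum. These are ratios of RNA levels and do not measure enzyme activity.

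The pools were then compared gene by gene. Log2 ratios are replicate 2 minus replicate 1 of counts scaled by edgeR's trimmed mean, and they compare 2 libraries of 1 condition. The biological coefficient of variation, the relative spread between the libraries beyond counting error, was estimated at 12.3%. The counting intervals leave this spread out. An interval that excludes equality therefore does not by itself set a gene apart from variation between pools. Of the 9 genes, 8 had the mean of at least 50 counts required, with a median log2 ratio of 0.48, against 0.01 over all 13929 genes compared. The exception was Cyp26a1. A counting interval that excluded equality was found for 5 genes higher in replicate 2, where 26.5% of all genes compared were, and for 2 higher in replicate 1, where 24.1% were. Crabp2 was the gene whose interval included equality.

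A difference of at least 2-fold with such an interval was found for 1 gene higher in replicate 2, Aldh1a1, where 0.366% of all genes met that rule. None was higher in replicate 1 by it, where 1.01% did. Aldh1a1, at 10 and 99 counts, had a log2 ratio of 3.48 (95% exact Clopper-Pearson interval 2.60 to 4.65), or 11.2-fold. It exceeded the ratio of 99.97% of the genes compared. Its mean of 54.5 counts lay just above the minimum of 50, and no replicate of either pool is there to check it.

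The remaining differences were under 2-fold. Cyp26b1 had a log2 ratio of 0.78 (0.54 to 1.03), Dhrs3 0.64 (0.45 to 0.83), Aldh1a2 0.62 (0.44 to 0.80) and Rdh10 0.35 (0.10 to 0.60). In the other direction, Aldh1a3 had -0.70 (-0.99 to -0.41) and Crabp1 -0.30 (-0.48 to -0.12). By TPM, with 0.1 added, the log2 ratio of Aldh1a3 was -0.56, nearer equality than in scaled counts. Crabp2 had -0.03 (-0.30 to 0.24). The enzyme genes compared thus lay above 0, except for Aldh1a3, and the binding proteins lay at or below it, though above it with spike-in scaling. Of all genes compared, 3.19% had a lower ratio than Aldh1a3, and 99.2% had a lower ratio than Cyp26b1.

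**Figure D3:**
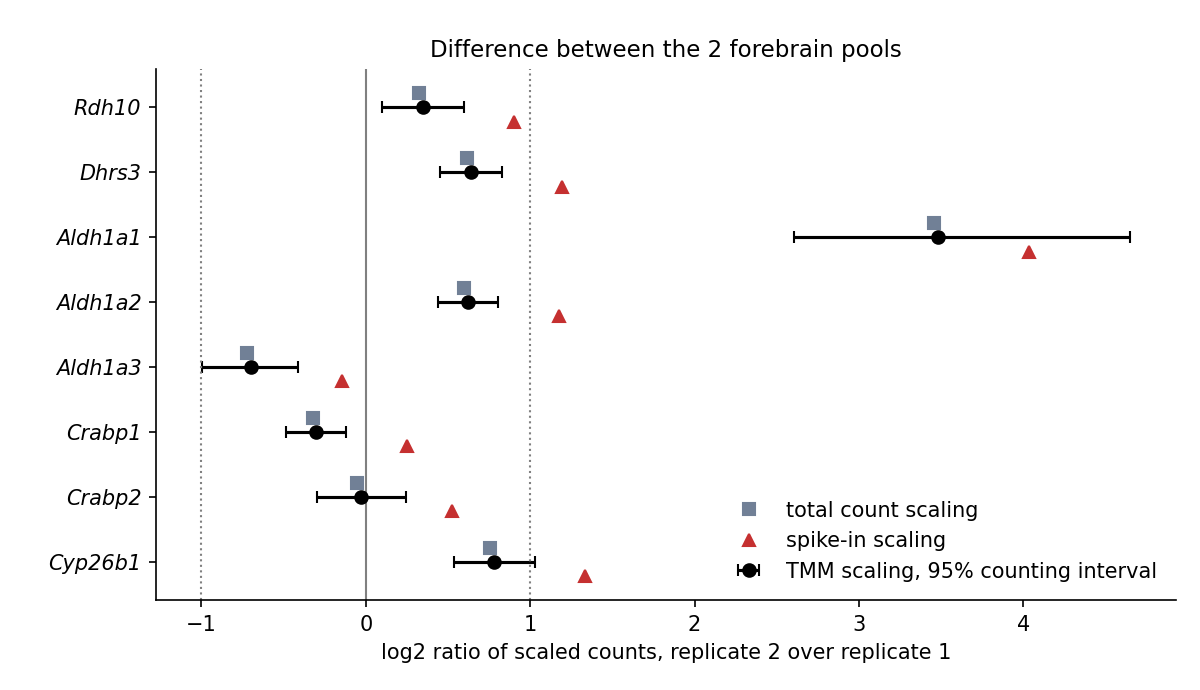
Log2 ratio of replicate 2 to replicate 1 for the 8 genes compared, by trimmed mean scaling (circles, with 95% exact counting intervals), total counts (squares) and spike-ins (triangles), with lines at equality and at 2-fold differences. By the trimmed mean Aldh1a1 at 3.48 lies far to the right of the others, which run from -0.70 for Aldh1a3 to 0.78 for Cyp26b1.

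These ratios depend on what is held equal. With counts scaled by the spike-ins instead, all log2 ratios shift upwards by 0.55. The genes at least 2-fold apart were then 515 higher in replicate 2 and 21 higher in replicate 1, against 51 and 140 by the trimmed mean. Under spike-in scaling Crabp1 and Crabp2 had log2 ratios above 0, and Cyp26b1, Dhrs3 and Aldh1a2 passed 2-fold beside Aldh1a1. The order of the genes by ratio is the same under any such shift.

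Among the 13929 genes compared, which exclude those under 50 mean counts, the ones whose ratios lay nearest to that of Aldh1a1 were Cnmd at 3.60, Hapln1 at 3.02, Ibsp at 4.14, Gata3 at 2.74 and Aspn at 2.46. This likeness is measured over 2 libraries only. Cnmd and Hapln1 encode proteins of cartilage, Ibsp a bone matrix protein, Gata3 a transcription factor and Aspn a matrix proteoglycan. Ibsp had 24 and 367 counts, and Cnmd 13 and 139.

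Markers of other tissues differed between the pools beside Aldh1a1. The 9 cartilage and bone markers summed to 16.8 and 59.1 TPM in replicates 1 and 2. Without Col2a1, the most abundant of them, the sums were 2.75 and 29.2 TPM. All 5 markers with enough counts met the 2-fold rule in the direction of replicate 2, which 0.366% of all genes did. Of these 5, Cnmd, Hapln1 and Ibsp were already picked above for ratios near that of Aldh1a1. The list was also chosen with earlier results known, so this count is not an independent result. The 8 nasal and airway markers summed to 2.14 and 20.5 TPM, with 16.82 TPM of the second in Bpifa1, which had 2 and 267 counts. Without Bpifa1 the sums were 1.91 and 3.68 TPM, and Scgb1a1 was at 0 in both. Of the cartilage and bone markers 1 of 9, and of the nasal markers 1 of 8, reached 1 TPM in both libraries. Their part in the Aldh1a1 result was not tested.

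Markers of the known sites of Aldh1a1 were also read. The 8 midbrain dopamine neuron markers summed to 26.2 and 26.3 TPM, and to 9.37 and 9.75 TPM without Slc18a2, the most abundant. In both libraries, 3 of 8 reached 1 TPM. Of these, Th, which makes the dopamine precursor, had 174 and 141 counts, and Slc18a2 and Ddc serve other monoamine cells as well. Ddc, which makes dopamine and serotonin, had 123 and 57 counts, with its log2 ratio at -0.87 (-1.35 to -0.41). The other 5 markers had too few counts to be compared, with the dopamine transporter Slc6a3 at 7 and 50 counts and the midbrain factor En1 at 1 and 13. En2 was at 0 in replicate 1 with 2 counts in replicate 2, Pitx3 had 2 and 4 and Foxa2 1 and 3. The 7 eye markers summed to 0.72 and 0.93 TPM, with none at 1 TPM in both. The part of midbrain cells in the Aldh1a1 result was not tested.

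Most meningeal markers were higher in replicate 2 beside Aldh1a2. The 10 meningeal fibroblast markers summed to 225 and 501 TPM in replicates 1 and 2, with 8 of 10 at 1 TPM in both and none at 0. All 9 with enough counts had ratios above 0, with a median of 0.93, and Col1a1 and Col1a2 met the 2-fold rule, against 0.366% of all genes. These collagens are also made by bone and other connective tissue. The markers that are not matrix genes were mixed. The transcription factor Foxc1 was at 0.71 and 1.37 TPM, with a log2 ratio of 0.93 (0.42 to 1.47). The transporter Slc6a13 was at 20.43 and 28.01 TPM, with 0.50 (0.35 to 0.64). The transcription factor Tbx18 was at 1.77 and 1.89 TPM, with 0.09 (-0.26 to 0.43), an interval that includes equality. Foxd1, another transcription factor, had 33 and 31 counts, too few for the comparison, at 0.74 and 0.83 TPM. Aldh1a2 at 0.62 lay below the median of the list. The part of meningeal tissue in the Aldh1a2 result was not tested.

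Markers of the ganglionic eminence and striatum were read beside Aldh1a3. The list summed to 222 and 202 TPM, with 7 of 7 at 1 TPM in both and none at 0. Its median log2 ratio was -0.06, nearer 0 than Aldh1a3 at -0.70, but its genes were split. Counting intervals lay below 0 for 3 of 7, where 24.1% of all genes compared did, and above 0 for 1, where 26.5% did. Drd2 was at -0.50 (-0.90 to -0.11), Isl1 at -0.44 (-0.55 to -0.34) and Ebf1 at -0.24 (-0.33 to -0.15). Gsx2 was at 0.84 (0.43 to 1.26). The radial glia list summed to 1780 and 2230 TPM, with all 8 ratios above 0 and a median of 0.27. Of all 13929 genes compared, 7250 had ratios above 0. The neuron list summed to 4119 and 3779 TPM, with 2 of 6 ratios above 0 and a median of -0.13. The choroid plexus list summed to 461 and 414 TPM, and to 40.3 and 44.3 TPM without Ttr, its most abundant gene. Of its 7 genes with enough counts, counting intervals lay above 0 for 2. Prlr, with 90 and 28 counts, met the 2-fold rule in the direction of replicate 1, at -1.43 (-2.12 to -0.82). That rule was met in this direction by 1.01% of all genes. The endothelial list summed to 202 and 239 TPM, with all 6 ratios above 0 and a median of 0.23. The part of these cells in the ratios of the 9 genes was not tested.

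**Figure D4:**
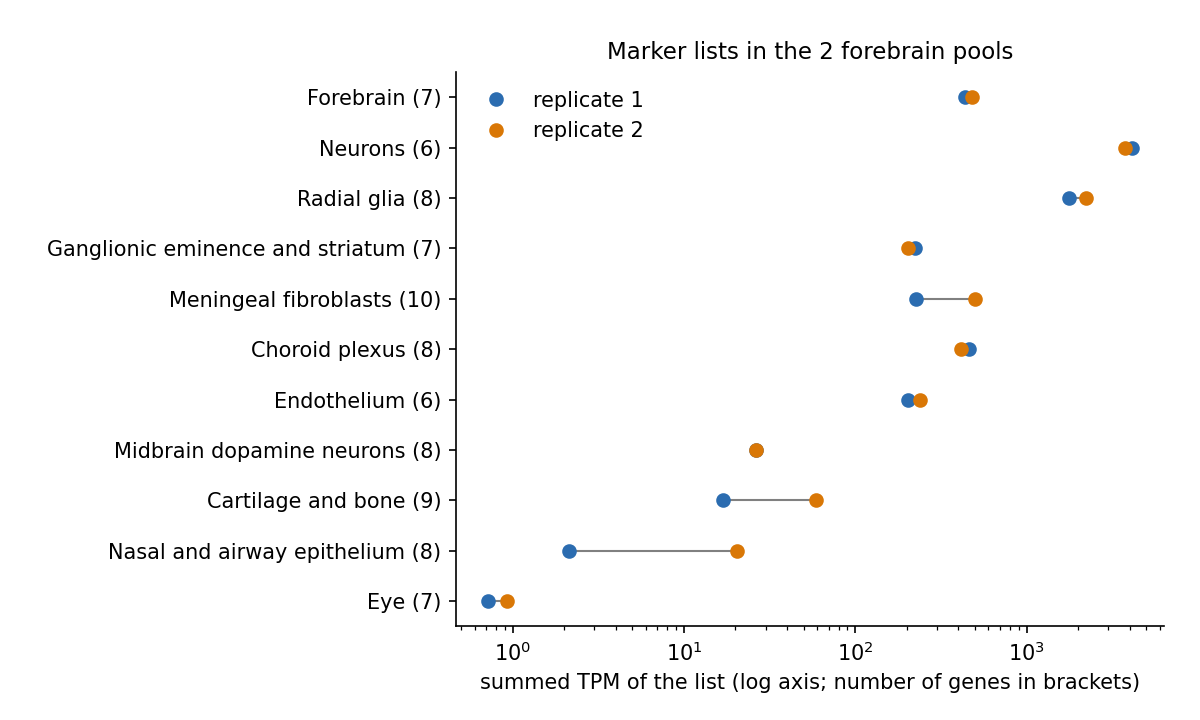
Summed TPM (log axis) of each marker list in the 2 libraries, joined by a line, with the number of genes in brackets. The cartilage and bone, nasal and airway, and meningeal lists lie further apart than the forebrain and neuron lists. The points of the midbrain list, at 26.24 and 26.26 TPM, lie on top of each other. Most of each midbrain sum is Slc18a2, and scarcer genes of that list differed between the pools.

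The genes that act around these steps were present in part. Of 48 other genes of the retinoid pathway, 29 reached 1 TPM in both libraries, a share close to the 60.7% of all protein-coding genes. Of the 30 with enough counts, none met the 2-fold rule, which 0.366% and 1.01% of all genes met in the direction of replicates 2 and 1. Counting intervals lay above 0 for 9 of them and below 0 for 10, against 26.5% and 24.1% of all genes. Their median log2 ratio was 0.02, beside 0.01 over all genes compared.

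Retinol supply was led by Ttr, a carrier secreted by the choroid plexus, at 421 and 370 TPM. The retinol receptor Stra6 was at 9.78 and 7.77 TPM. The plasma carrier Rbp4 was at 0.96 and 1.15 TPM. Of the list, 3 of 7 reached 1 TPM in both.

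Among the other oxidoreductases, 7 of 16 reached 1 TPM in both libraries. Adh5, a ubiquitous enzyme best known for formaldehyde removal, led at 204 and 234 TPM. Rdh8, Rdh16, Dhrs9 and Sdr16c5 were at 0 in both. Adh1, a cytosolic alcohol dehydrogenase able to oxidise retinol, had 6 and 36 counts, too few for the comparison, at 0.23 and 1.84 TPM. Fabp5, a fatty acid carrier that can also bind retinoic acid, was at 734 and 742 TPM, far above both Crabp genes.

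All 6 receptors were present. Rxrb was at 49.17 and 47.46 TPM and Rxrg at 51.16 and 34.51 TPM, the latter with a log2 ratio of -0.58 (-0.69 to -0.47). Rarb, itself a known target of retinoic acid, was at 16.67 and 16.43 TPM. Rara was at 8.12 and 8.95 TPM, Rarg at 5.30 and 6.75 TPM and Rxra, the lowest, at 2.04 and 2.92 TPM. All 7 coregulators reached 1 TPM in both, led by the corepressor Ncor1 at 155 and 171 TPM.

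Genes known to respond to retinoic acid were mixed, with 6 of 11 at 1 TPM in both libraries. The homeobox genes Meis2 and Meis1 led at 129 and 121 TPM and at 34.67 and 24.30 TPM. Tgm2, a transglutaminase, was at 4.18 and 6.33 TPM. Hoxb1, a target in the hindbrain, and Stra8, a target in germ cells, were at 0 in both. Cyp26a1, counted among the 9 genes, stood with the low ones.

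**Figure D5:**
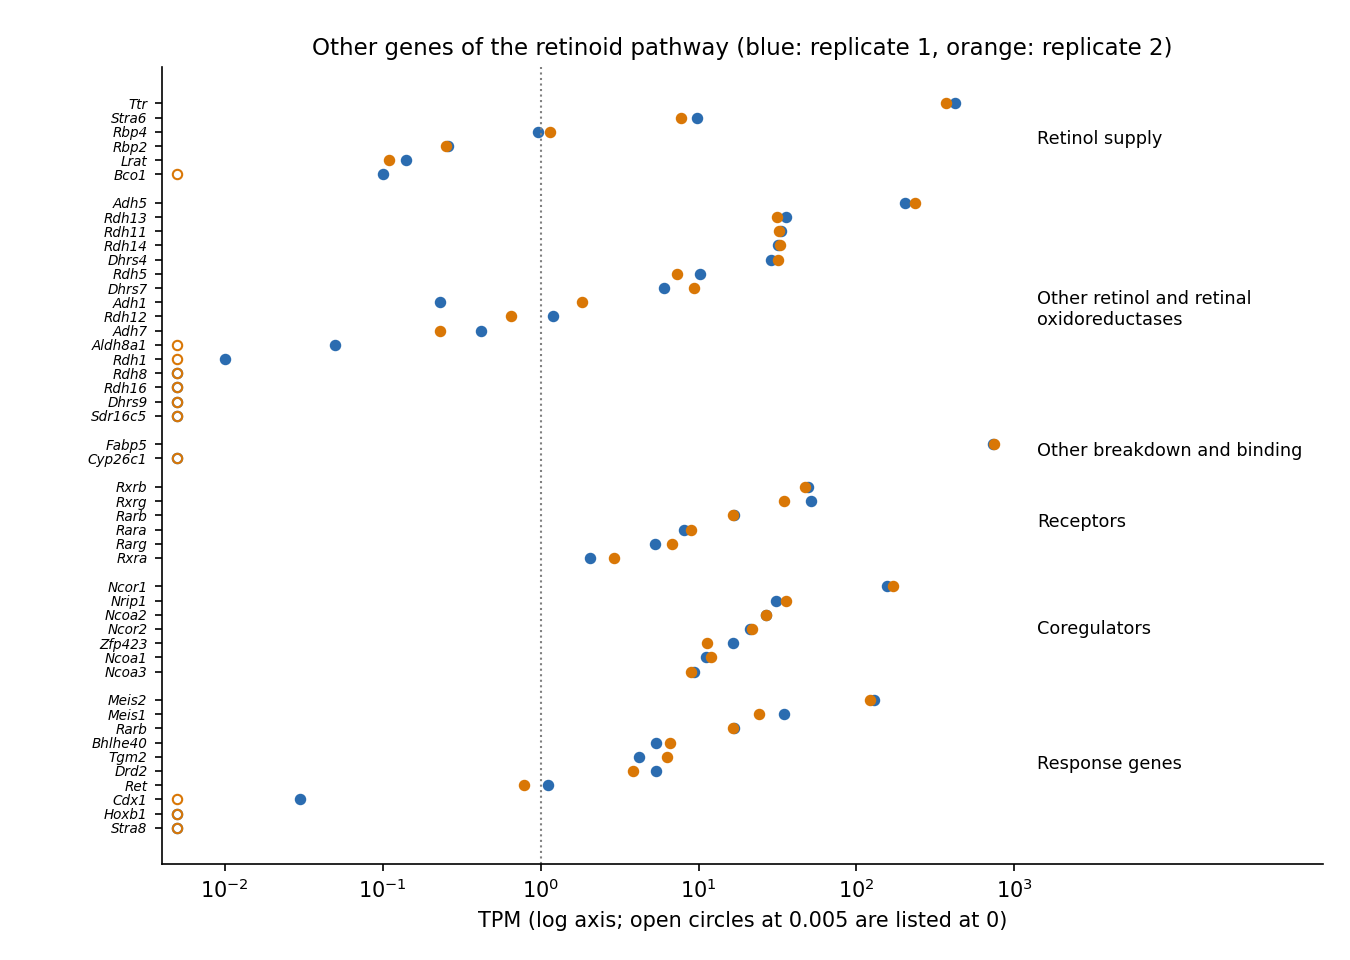
TPM (log axis) of other genes of the retinoid pathway in each library, by role, with the dotted line at 1 TPM and open circles for genes listed at 0. The receptors and coregulators all lie right of the line, whereas the oxidoreductases run from 0 to above 200 TPM.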

How the data were processed

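Total RNA sequencing tables of 2 forebrain pools were used, 1 gene and 1 transcript table each. Per the notes deposited with the samples, alignment was to mm10 and quantification to GENCODE M4 transcripts. Neither program is named in the sources used here. The authors deposited expected counts, without normalization, per the file headers. The deposited TPM sums to the same fixed total over all features of a library, spike-ins included, which take 5.93% and 4.10% of it. Deposited FPKM values served for the order of genes only, and the authors also gave the percent that each transcript holds within its gene, per the file headers. Posterior means and their 95% bounds come from the same tables.

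Names and coordinates came from GENCODE M21 (GRCm38), which matched 42462 of 43346 identifiers, and promoters from RefSeq. Expected counts were rounded and scaled by TMM in edgeR 4.0.16 (R 4.3.3), with a prior count of 0.5. A difference was counted at a mean of at least 50 counts, a ratio of at least 2-fold and a 95% exact counting interval without equality. With 2 libraries of 1 group no p-value was computed. Python 3.11.15, numpy 2.4.6, pandas 2.3.3, scipy 1.17.1 and matplotlib 3.10.9 did the rest. The ratio step was tested on simulated counts with Poisson noise alone. That check does not cover the spread beyond sampling noise found between these libraries. The genes, lists and rules were chosen with earlier results of these data known. The rule for naming other genes took the 5 with ratios nearest to a differing gene and, of each list, the 3 highest, the lowest and those differing. Some of these are not reported here, in text or figure, and further named list members were chosen after their values were seen. Alternatives were the estimate, TPM minimum, pseudocount, scaling, count minimum, prior count, fold and each library left out.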

Additional observations from a re-analysis of the deposited data

How the results depend on the processing

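The number of the 9 genes at least 2-fold apart, 1 by the main settings, was 4 with spike-in scaling, 5 at a 1.5-fold minimum and 0 at a mean count of at least 200, which Aldh1a1 does not reach. Over all genes the number, 191 with 51 higher in replicate 2, was 536 (515 higher in replicate 2) with spike-in scaling, 471 (135) at a minimum of 20 counts, 38 (10) at 200, 1098 (392) with no minimum, 918 (265) at 1.5-fold and 40 (20) at 3-fold. With spike-in scaling the log2 ratio was 0.25 for Crabp1 and 0.53 for Crabp2, both opposite in sign to the trimmed mean values, and 1.33 for Cyp26b1, 1.19 for Dhrs3 and 1.17 for Aldh1a2. The mean log2 ratio of Cyp26b1 to Cyp26a1, 4.58 with 0.1 TPM added, was 5.89 with 0.01 TPM, 2.12 with 1 TPM and 4.28 by posterior means, since Cyp26a1 lies under the floor of 3 counts. By posterior means the leading transcript held 75.3% of Cyp26b1, 98.7% of Crabp2 and 85.5% of Rdh10. Scaling by total counts or RLE, posterior mean counts and a prior count of 2 changed no direction and no call among the 9 genes. With either library alone, no pair changed sign, and 8 genes without replicate 1 and 7 without replicate 2 reached 1 TPM. No paired analysis was possible because the series has 1 group. Depth limits Cyp26a1 and, in replicate 1, Aldh1a1.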
